A study of Mus musculus with 12 samples.

Results

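Fn1, the gene of fibronectin, and Tnc, the gene of tenascin C, were followed through primary tumours of 4 mouse mammary carcinoma lines, at the level of the gene and of each probeset, the small group of array probes that reads 1 stretch of a transcript. The members were the probesets that the array's annotation assigns to Fn1 or Tnc alone. There were 83 of them among the 228090 probesets in the table, 54 for Fn1 and 29 for Tnc, and 0 were shared with another gene. The arrays were Affymetrix mouse exon arrays, 12 in number, with 3 arrays per line. The groups were tumours grown from 4T1, 4T07, 168FARN and 67NR cells, injected into the mammary fat pad of BALB/c females 3 months of age, and no group carried any other treatment. All 4 lines are known to come from 1 spontaneous mammary tumour and to differ in how far they spread: 4T1 cells form metastases in distant organs, 4T07 cells reach the lung but do not grow into visible nodules there, 168FARN cells reach the draining lymph nodes, and 67NR cells stay at the primary site. Each behaviour was thus represented by 1 line, and line and behaviour cannot be told apart. Nothing in the labels states that the 3 tumours of a line came from separate animals, so the p-values cover only the spread between these samples and that spread could be technical.

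Fibronectin is a large glycoprotein that cells assemble into fibrils through integrins, and much of its length is a row of type III repeats. Some of these repeats are encoded by exons that can be left out: extra domain A, extra domain B and a variable region are the alternative parts, and the extra domains are known to be retained in embryonic tissue, in wounds and in tumour stroma. Tenascin C is a matrix glycoprotein with its own type III repeats, several of them alternative, and is known for its low level in resting adult tissue and its high level around tumours and healing wounds. Fibroblasts and tumour cells can both make either protein. In whole tumours, fewer cells of a type and less RNA per cell cannot be told apart. Which exon each probeset covers was not analysed here, so a probeset that departs from its gene is given by its number and is not assigned to an alternative repeat.

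Signals are on a log2 scale, so a difference of 1 is a doubling. The median signal of an array lay between 7.21 and 7.57, and 2 arrays of a line correlated over all probesets at 0.979 to 0.989. As a mark of background, 335 olfactory receptor genes had a 95th percentile of 5.08. Epithelial markers, counted over 7 measured genes, averaged 9.64 ± 0.21 in 4T1, 9.38 ± 0.76 in 4T07, 7.50 ± 0.04 in 168FARN and 6.24 ± 0.48 in 67NR (SD, n = 3 arrays each), and all 7 lay above background in each line. The 168FARN arrays stood apart in another way. The mean of 8 skeletal muscle markers was 5.41, 7.69 and 8.77 on its arrays 1, 2 and 3, against 5.39 to 6.32 on the other 9 arrays. Results that involve 168FARN were therefore also fitted with array 1 as the only array of its line, and values from that fit are given where it changed a call or a count.

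Tnc separated the lines into a high pair and a low pair. On arrays 1, 2 and 3 its gene level, the median over its probesets, was 10.59, 10.60 and 11.11 in 4T1. It was 10.88, 9.88 and 11.22 in 4T07, 7.89, 7.25 and 8.20 in 168FARN, and 8.93, 8.64 and 8.58 in 67NR. All 6 arrays of 4T1 and 4T07 lay above all 6 arrays of 168FARN and 67NR, the lowest being array 2 of 4T07. The 168FARN arrays all lay below the 67NR arrays, and 4T1 and 4T07 overlapped. The line means were 10.77 ± 0.30 in 4T1, 10.66 ± 0.70 in 4T07, 7.78 ± 0.48 in 168FARN and 8.71 ± 0.19 in 67NR (SD, n = 3 each), so that 168FARN had the lowest level and the 2 highest neighbours, 4T1 and 4T07, differed by less than their spread.

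Tnc was 4.15-fold higher in 4T1 than in 67NR, a log2 change of 2.05 (SE 0.315, limma adjusted p = 0.000362), and 3.85-fold higher in 4T07 than in 67NR (log2 change 1.95, adjusted p = 0.000526). Genes that passed this test upward made up 9.38% of the 15025 genes tested for 4T1 and 11% for 4T07. Against 168FARN the differences were larger: 7.94-fold in 4T1 (log2 change 2.99, adjusted p = 1.28e-05) and 7.37-fold in 4T07 (log2 change 2.88, adjusted p = 2.11e-05), where 11.9% and 11.4% of genes were called higher. Tnc was lower in 168FARN than in 67NR by a log2 change of -0.94 (SE 0.315, 95% confidence interval -1.62 to -0.26, adjusted p = 0.0456), a test that 11.2% of genes passed downward. That last call was the weak one. It was lost when 168FARN array 1 stood alone for its line (-0.83, adjusted p = 0.245), and on leaving out any 1 of 8 arrays (arrays 1 and 2 of 4T1, array 1 of 4T07, arrays 1 and 2 of 168FARN and each array of 67NR), with values between -1.14 and -0.67 over all 12 omissions. Between 4T1 and 4T07 the difference was 0.11 (95% confidence interval -0.58 to 0.79, adjusted p = 0.936), with 2.38% of genes called in either direction. The moderated F-test over the 4 lines gave Tnc an adjusted p of 1.14e-05, and 42% of genes passed it. The comparisons against 67NR share its 3 arrays, as those against 168FARN share theirs, so they are not independent of each other.

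**Figure D1:**
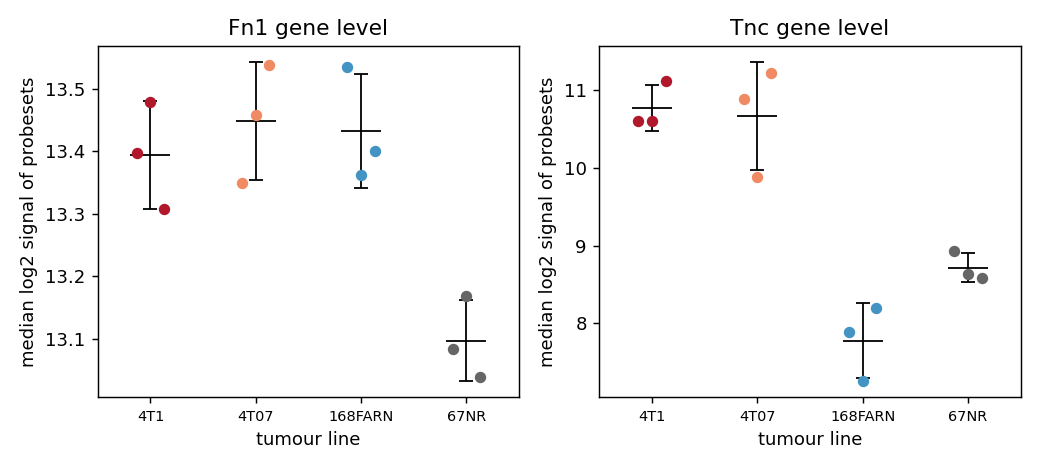
Gene level of Fn1 (left) and Tnc (right), the median log2 signal of the gene's probesets, on each of the 12 arrays by tumour line; points are arrays, the long bar is the line mean and the whiskers are 1 SD (n = 3). The 2 panels have different vertical axes: the Fn1 means span 0.35 and the Tnc means span 2.99, with Tnc near 10.7 in 4T1 and 4T07, 7.78 in 168FARN and 8.71 in 67NR.

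Fn1 was strongly expressed in every tumour and differed little. Its gene level on arrays 1, 2 and 3 was 13.40, 13.48 and 13.31 in 4T1, 13.35, 13.46 and 13.54 in 4T07, 13.54, 13.36 and 13.40 in 168FARN, and 13.08, 13.17 and 13.04 in 67NR. All 9 arrays of 4T1, 4T07 and 168FARN lay above all 3 arrays of 67NR, a pattern that 5.1% of the genes tested also had. The means were 13.39 ± 0.09, 13.45 ± 0.09, 13.43 ± 0.09 and 13.10 ± 0.07 in the same order (SD, n = 3 each), and the first 3 of them overlapped array by array. The difference from 67NR was 0.30 in 4T1 (95% confidence interval 0.02 to 0.57, limma adjusted p = 0.12), 0.35 in 4T07 (0.08 to 0.63, adjusted p = 0.0631) and 0.34 in 168FARN (0.06 to 0.61, adjusted p = 0.073). None passed the threshold of 0.05 after adjustment over all genes, and the F-test over the 4 lines gave an adjusted p of 0.101. Among the 3 upper lines the differences were -0.06 for 4T1 against 4T07 (-0.33 to 0.22), -0.04 for 4T1 against 168FARN (-0.31 to 0.24) and 0.02 for 4T07 against 168FARN (-0.26 to 0.29), none of which passed the test. These gene-level tests are close to the threshold: under quantile normalization Fn1 passed against 67NR in 4T1 (0.32, adjusted p = 0.043), 4T07 (0.42, adjusted p = 0.012) and 168FARN (0.39, adjusted p = 0.016).

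The Fn1 probesets sat near the top of the scale. The highest value in the whole table was 14.65, and 39 of the 54 Fn1 probesets had a mean above 13 over the 12 arrays, as did 0.255% of all probesets. The change against 67NR was smaller in these bright probesets. Their median was 0.26 in 4T1, against 0.39 for the other 15 Fn1 probesets. It was 0.28 against 0.51 in 4T07, and 0.27 against 0.53 in 168FARN. Across the 54 probesets, the mean signal and the change against 67NR correlated at -0.482 in 4T1, -0.820 in 4T07 and -0.846 in 168FARN. These are descriptions over probesets that share the same arrays, and whether the array's upper range holds down the differences of Fn1 was not tested.

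**Figure D2:**
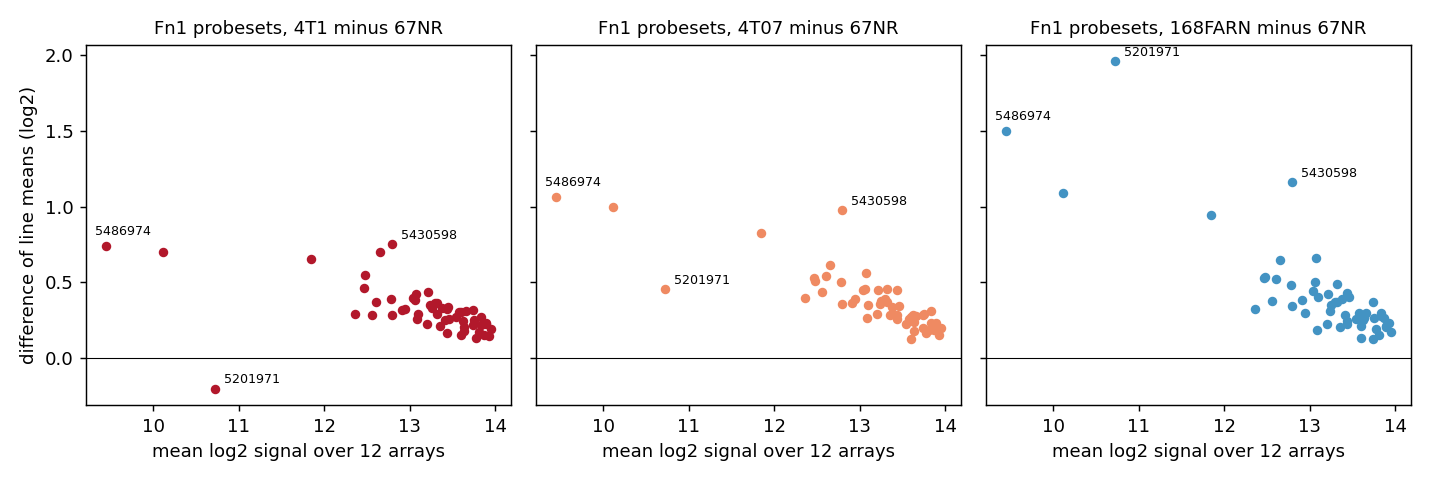
Each point is 1 of the 54 Fn1 probesets; the horizontal axis is its mean log2 signal over 12 arrays and the vertical axis the difference of line means (log2) of 4T1, 4T07 and 168FARN against 67NR. Most points lie above 13 with small positive differences, and probeset 5201971 lies at 1.96 in 168FARN, 0.46 in 4T07 and -0.20 in 4T1.

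In direction the Fn1 probesets moved together. Against 67NR the mean was higher for 53 of 54 probesets in 4T1 and for 54 of 54 in both 4T07 and 168FARN. The 3 arrays of the line all lay above the 3 arrays of 67NR for 49 Fn1 probesets in 4T1, 51 in 4T07 and 49 in 168FARN, where 15.9%, 13.9% and 17.2% of all probesets with 1 gene did so. The 1 probeset that was lower in 4T1, 5201971, is described next. All 54 were above 5.98, the 95th percentile of the olfactory receptor probesets, on every array, and the median correlation between 2 Fn1 probesets over the 12 arrays was 0.840.

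Fn1 probeset 5201971 was highest in 168FARN. Its signal was 10.10, 9.87 and 9.95 on arrays 1, 2 and 3 of 4T1, 10.61, 10.62 and 10.66 in 4T07, 12.45, 11.50 and 12.45 in 168FARN, and 10.12, 10.28 and 10.12 in 67NR. The lowest of the 168FARN arrays lay above the highest of the other 9, the 4T07 arrays lay above those of 67NR, and the 4T1 arrays lay below those of 67NR. Set against the Fn1 gene level of the same array, it differed by -3.42 ± 0.16 in 4T1, -2.82 ± 0.07 in 4T07, -1.30 ± 0.49 in 168FARN and -2.92 ± 0.04 in 67NR (SD, n = 3 each). Of all 54 Fn1 probesets it followed the gene level least closely over the arrays, at a correlation of 0.428. The next lowest was 0.501, for probeset 4804538.

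The exon test, limma's diffSplice, asks whether a probeset changed by more or less than the rest of its gene, and was run on 110320 probesets. Calls required an adjusted p below 0.05 and a relative change, that is the probeset's change less that of the rest of the gene, of 1 or more in either direction. Probeset 5201971 was called higher in 168FARN than in 67NR, with a relative change of 1.57 (SE 0.126, adjusted p = 1.77e-25). It was called lower in 4T1 than in 168FARN (-2.09, adjusted p = 7.89e-44) and lower in 4T07 than in 168FARN (-1.49, adjusted p = 1.56e-23). This test uses 1 spread for all probesets of a gene. It treats them as independent though they share the same arrays, so its p-values can be too small. A splicing index, which tests each probeset's distance from its gene and uses that probeset's own spread, also called it in the same 3 comparisons: 1.62 for 168FARN against 67NR (adjusted p = 0.00471), -2.12 for 4T1 against 168FARN (adjusted p = 0.000916) and -1.52 for 4T07 against 168FARN (adjusted p = 0.0068). In 4T1 against 67NR the relative change was -0.53 (diffSplice adjusted p = 0.00628) and in 4T1 against 4T07 it was -0.61 (adjusted p = 0.00415), both under the size threshold. By the splicing index these last 2 had adjusted p-values of 0.488 and 0.674.

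Probeset 5201971 lay closer to its gene level on all 3 arrays of 168FARN than on any array of the other lines. Its difference from the gene level was -1.09 on array 1, the array with the low muscle markers, -1.86 on array 2 and -0.95 on array 3. With array 1 alone the relative change was 1.74 for 168FARN against 67NR and -2.26 for 4T1 against 168FARN. The spread of 168FARN cannot be estimated from 1 array. It was called in all 12 fits that left out 1 array, with relative changes of 1.41 to 1.81 for 168FARN against 67NR, -2.34 to -1.94 for 4T1 against 168FARN and -1.73 to -1.33 for 4T07 against 168FARN. Fibroblast markers were, as a mean, also highest in 168FARN, but not each of them. The mean of 14 of them was 8.62 ± 0.16 in 4T1, 8.82 ± 0.24 in 4T07, 9.82 ± 0.09 in 168FARN and 8.43 ± 0.15 in 67NR (SD, n = 3 each). Compared with 67NR, 9 of the 14 were higher in 168FARN and 1 was lower (7 and 0 with array 1 alone), with the largest changes in the small leucine-rich proteoglycans Ogn (5.08), Lum (4.65) and Dcn (3.03). For 168FARN against 67NR, 13.5% of all genes were called higher and 11.2% lower. Compared with 168FARN, 3 of the 14 were higher and 9 lower in 4T1, and 3 were higher and 8 lower in 4T07. There 11.9% of all genes were higher and 19.3% lower in 4T1, and 11.4% and 16.8% in 4T07. Col1a2 was among the higher ones, by 1.712 in 4T1 and 1.685 in 4T07. The signal of 5201971 was 9.97 in 4T1 and 10.18 in 67NR, beside marker means of 8.62 and 8.43. Within 168FARN, the mean of the 14 markers was 9.915, 9.803 and 9.747 on arrays 1, 2 and 3, and array 2 had the lowest 5201971 signal. Single markers differed on array 2: Ogn (12.11), Lum (12.32) and Dcn (13.69) were highest there, and Col1a2 (8.93) was lowest. The part of fibroblasts in the signal of 5201971 was not tested.

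**Figure D3:**
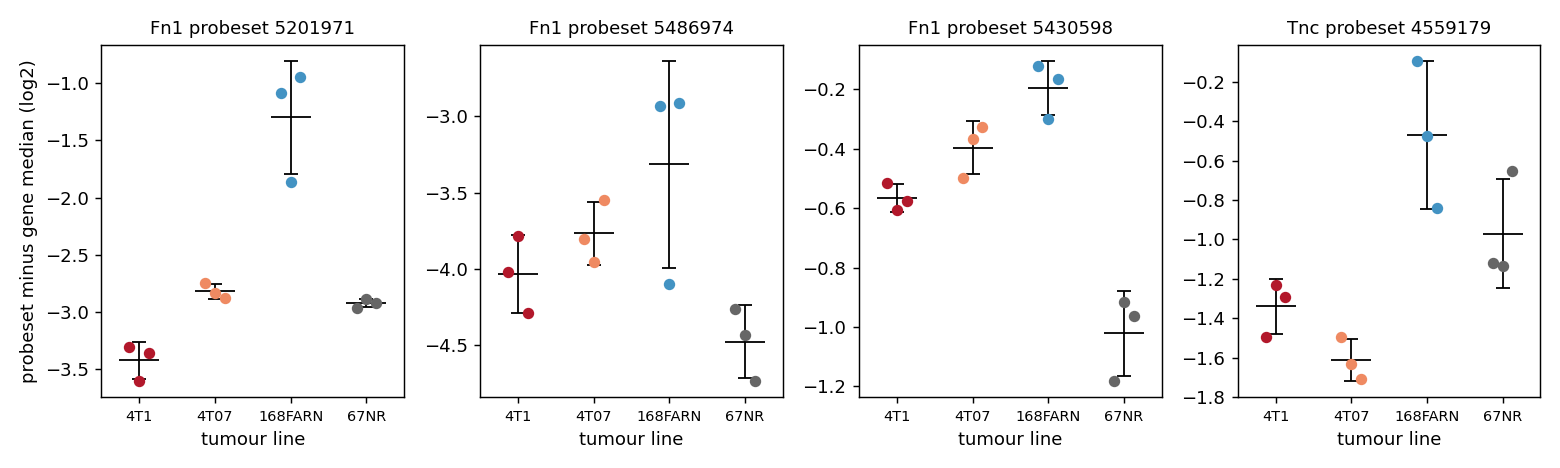
Signal of 4 probesets minus the gene level of the same array (log2) by tumour line; points are arrays, the long bar is the line mean and the whiskers are 1 SD (n = 3). Fn1 probeset 5201971 is closest to its gene in 168FARN, at -1.30, and at -3.42 in 4T1; 5430598 is furthest below in 67NR; Tnc probeset 4559179 is closest to its gene in 168FARN.

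A second Fn1 probeset, 5486974, was called higher in 168FARN than in 67NR, with a relative change of 1.10 (diffSplice adjusted p = 3.84e-13). Its mean over all arrays, 9.45, was the lowest of the Fn1 probesets, and that of 5201971 was 10.73. Both are thus among the 15 Fn1 probesets at or below 13, where changes against 67NR were larger as a whole. Whether signal level bears on these calls was not tested. Its signal was 9.38, 9.69 and 9.02 in 4T1, 9.55, 9.51 and 9.99 in 4T07, 10.60, 9.27 and 10.49 in 168FARN, and 8.82, 8.74 and 8.30 in 67NR on arrays 1, 2 and 3. Array 2 of 168FARN fell among the 4T1 arrays, and all 9 arrays of the 3 lines lay above 67NR. The call was not firm: the splicing index gave 1.16 with an adjusted p of 0.13, and the relative change fell below 1 on leaving out array 3 of 67NR (0.93), array 1 of 168FARN (0.92) or array 3 of 168FARN (0.91). Without 168FARN array 2 it was called lower in 4T1 than in 168FARN (-1.02).

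Counted over the 54 Fn1 probesets, calls by the exon test numbered 0 in 4T1 against 67NR, 0 in 4T07 against 67NR and 2 in 168FARN against 67NR, where 0.736%, 0.672% and 0.743% of all probesets tested were called in either direction. They numbered 1 in 4T1 against 168FARN (1.26% of all), 1 in 4T07 against 168FARN (0.761%) and 0 in 4T1 against 4T07 (0.149%). For the 3 counts of 0, the splicing index also called 0, and diffSplice gave an unadjusted p under 0.05 for 6, 5 and 2 Fn1 probesets in 4T1 against 67NR, 4T07 against 67NR and 4T1 against 4T07. By the splicing index these numbers were 5, 7 and 1. The splicing index called 1 Fn1 probeset, 5201971, in each comparison with 168FARN, where it called 0.344% of all probesets against 67NR, 0.682% for 4T1 and 0.379% for 4T07. Without the size threshold, diffSplice had an adjusted p under 0.05 for 2 Fn1 probesets in 4T1, 4 in 4T07 and 5 in 168FARN against 67NR, beside 1.03%, 0.943% and 1.16% of all probesets.

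Among these smaller departures, Fn1 probeset 5430598 set 67NR apart from the other 3 lines. Its signal was 12.88, 12.87 and 12.73 in 4T1, 12.85, 13.09 and 13.21 in 4T07, 13.41, 13.06 and 13.24 in 168FARN, and 11.90, 12.25 and 12.07 in 67NR. All 9 arrays of the 3 lines lay above the 67NR arrays, but in each line at least 49 of the 54 Fn1 probesets lay above 67NR in this way. Its difference from the gene level was -0.57 ± 0.05 in 4T1, -0.40 ± 0.09 in 4T07, -0.20 ± 0.09 in 168FARN and -1.02 ± 0.14 in 67NR (SD, n = 3 each). The relative change against 67NR was 0.44 in 4T1 (diffSplice adjusted p = 0.0492, splicing index adjusted p = 0.102), 0.61 in 4T07 (0.000616 and 0.0208) and 0.75 in 168FARN (4.11e-06 and 0.00555). Probeset 4534699 had relative changes of 0.39 in 4T1, 0.63 in 4T07 and 0.68 in 168FARN, and 5043242 had 0.34, 0.45 and 0.53. All 3 are among the 15 Fn1 probesets with a mean at or below 13, where the changes were larger as a whole.

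The Tnc probesets showed 1 shared pattern. In each of the 29 the 3 arrays of 4T1 and the 3 arrays of 4T07 all lay above the 67NR arrays, and above the 168FARN arrays as well. For the comparisons with 168FARN, 17% of all probesets did so in 4T1 and 13.3% in 4T07. The change against 67NR ran from 1.68 to 2.38 over the 29 probesets in 4T1 and from 1.30 to 2.30 in 4T07. Against 168FARN it ran from 2.12 to 3.93 in 4T1 and from 1.74 to 3.76 in 4T07. All 29 had a lower mean in 168FARN than in 67NR, between -1.57 and -0.33, and for 20 of them the arrays did not overlap, beside 16.2% of all probesets. Between 4T1 and 4T07 the change lay between -0.14 and 0.38, and 26 of 29 were higher in 4T1. The median correlation between 2 Tnc probesets over the arrays was 0.986, with 25 of 29 above the background mark of 5.98 on every array.

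**Figure D4:**
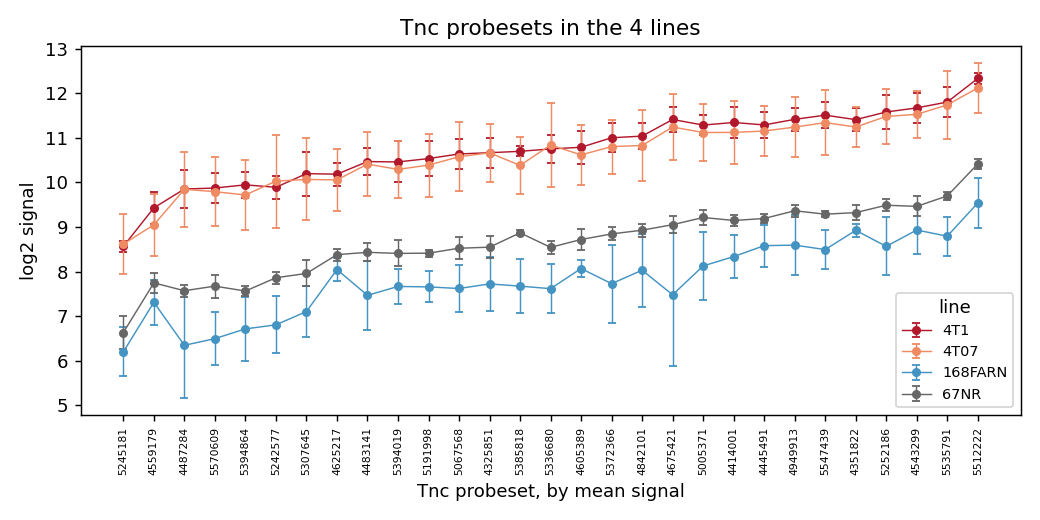
Log2 signal of the 29 Tnc probesets (horizontal axis, by probeset number in order of mean signal) in each line; points are line means and whiskers 1 SD (n = 3 arrays). The 4T1 and 4T07 curves lie together above those of 67NR and 168FARN at every probeset, and 168FARN lies below 67NR at every probeset.

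No Tnc probeset departed from its gene by the exon test. It called 0 of 29 in each of the 6 comparisons by diffSplice, with an unadjusted p under 0.05 for 2 probesets in 4T1 against 168FARN, 2 in 4T07 against 168FARN and 0 in the other 4 comparisons. By the splicing index, more Tnc probesets had an unadjusted p under 0.05. They numbered 6 in 4T1 and 10 in 4T07 against 168FARN. Against 67NR they numbered 1 in 4T1, 3 in 4T07 and 5 in 168FARN, with 0 in 4T1 against 4T07. The splicing index called 1, probeset 4559179, lower in 4T07 than in 168FARN by -1.14 (adjusted p = 0.0242), where diffSplice gave -1.12 with an adjusted p of 0.353. Its signal was 9.10, 9.37 and 9.82 in 4T1, 9.39, 8.25 and 9.51 in 4T07, 7.80, 6.78 and 7.36 in 168FARN, and 7.81, 7.50 and 7.93 in 67NR. It was thus higher in 4T07 than in 168FARN, like the rest of Tnc, but by less. Its difference from the gene level was -1.34 ± 0.14 in 4T1, -1.61 ± 0.11 in 4T07, -0.47 ± 0.37 in 168FARN and -0.97 ± 0.28 in 67NR (SD, n = 3 each). In 4T1 against 168FARN the splicing index gave -0.87 (adjusted p = 0.0519). There another probeset, 4625217, passed the splicing index on p alone, with -0.85 (adjusted p = 0.0484), a change short of the size threshold of 1. Its values in 4T07 against 168FARN were -0.87 and 0.0727, and diffSplice gave adjusted p-values of 0.522 in 4T1 and 0.864 in 4T07. Probeset 4675421 had 1 low value, 5.65 on array 2 of 168FARN against 8.26 and 8.53 on arrays 1 and 3.

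The receptors for these 2 proteins were a mixed group. Of 19 listed, 17 could be tested, and 4 were higher and 3 lower in 4T1 than in 67NR, with a median change of 0.32 beside -0.04 over all genes. In 4T07 4 were higher and 4 lower (median -0.01, all genes -0.04), and in 168FARN 3 were higher and 3 lower (median -0.10, all genes 0.04). Over all genes, 9.38% were called higher and 13% lower in 4T1, 11% and 12.7% in 4T07, and 13.5% and 11.2% in 168FARN. The largest change was that of Itga2, the alpha 2 integrin chain, a collagen receptor that can also bind tenascin C. It was 9.67, 9.53 and 9.81 in 4T1, 8.60, 7.73 and 9.45 in 4T07, 5.76, 5.47 and 5.82 in 168FARN and 5.88, 5.74 and 5.57 in 67NR on arrays 1, 2 and 3, so the high pair and the low pair of lines did not overlap. The change against 67NR was 3.94 in 4T1 (adjusted p = 1.31e-06) and 2.86 in 4T07 (adjusted p = 2.09e-05). Itgb3, a chain of the alpha v beta 3 integrin that binds both proteins, was higher by 1.24 in 4T1 and 1.10 in 4T07, and its change in 168FARN, -0.49, did not pass (adjusted p = 0.119). Sdc4, a syndecan that binds fibronectin with integrins, was higher by 0.94 in 4T1 and 1.28 in 4T07. Itga5, the alpha chain of the main fibronectin receptor, was lower by -0.71 in 4T1 and -0.68 in 4T07, and the leukocyte chain Itgb7 was lower by -0.94 in 4T1, a call lost without array 2 of 67NR (-0.78, adjusted p = 0.0579).

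In 168FARN other receptors led. The syndecan Sdc2 was 11.97, 12.11 and 12.00 on its arrays 1, 2 and 3, against 9.82, 9.87 and 9.91 in 67NR, a change of 2.16 (adjusted p = 4.06e-07). Itga8, a partner of the beta 1 chain that binds fibronectin, was higher by 1.40 and the alpha v partner Itgb5 by 1.05. Itga9, the alpha chain of a tenascin C receptor, was lower by -1.20, a call lost with 168FARN array 1 alone (-0.78, adjusted p = 0.0804). Against 168FARN, 11.9% of all genes were called higher and 19.3% lower in 4T1, and 11.4% and 16.8% in 4T07. There 7 receptors were higher and 5 lower in 4T1, and 5 were higher and 4 lower in 4T07. With array 1 of 168FARN alone, these became 4 higher and 5 lower in 4T1, 3 higher and 3 lower in 4T07, and 3 higher and 1 lower in 168FARN against 67NR. Between 4T1 and 4T07, 1 was higher and 1 lower in 4T1, where 2.38% of all genes were called in either direction.

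Partners in matrix assembly were more often higher than lower in the lines with high Tnc. Of 20 tested, 11 were higher and 4 lower in 4T1 than in 67NR (median change 0.71, all genes -0.04), 10 higher and 4 lower in 4T07 (median 0.48) and 6 higher and 5 lower in 168FARN (median 0.10, all genes 0.04). Over all genes, 9.38% were called higher and 13% lower in 4T1, 11% and 12.7% in 4T07, and 13.5% and 11.2% in 168FARN. Against 168FARN the shares were 11.9% higher and 19.3% lower in 4T1, and 11.4% and 16.8% in 4T07. Bmp1, the protease that trims the ends of procollagens, was higher by 1.95 in 4T1 and 1.43 in 4T07. Col1a1, a collagen I chain, was higher by 1.94 and 1.75, and Postn, the gene of periostin, a matrix protein that binds fibronectin and tenascin C, by 2.06 and 1.85. Tgm2, a transglutaminase that crosslinks fibronectin, was higher by 0.97 in 4T1 and 1.48 in 4T07. Col3a1 was higher in all 3 lines, by 1.24 in 4T1, 1.23 in 4T07 and 1.73 in 168FARN. Fbln1, the gene of fibulin 1, which binds fibronectin, was lower in all 3, by -2.18, -2.23 and -2.87 in the same order, and its arrays did not overlap with 67NR: 7.80, 7.65 and 7.70 in 4T1, 7.77, 7.57 and 7.67 in 4T07 and 7.19, 6.73 and 7.16 in 168FARN, against 9.75, 10.14 and 9.80 in 67NR. The proteoglycan Vcan was lower too, by -1.32, -1.04 and -1.88. Compared with 168FARN, 9 partners were higher and 3 lower both in 4T1 and in 4T07, which became 3 higher and 1 lower in each with array 1 of 168FARN alone. That fit also called 5 partners higher and 3 lower in 168FARN against 67NR. Between 4T1 and 4T07 the limma test called 0, with an unadjusted p under 0.05 for 2 higher and 1 lower in 4T1.

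Of the other tenascins, Tnn (tenascin N) went the opposite way to Tnc in 168FARN. Its gene level was 5.81, 5.52 and 6.26 in 4T1, 6.94, 5.85 and 6.40 in 4T07, 9.97, 10.07 and 8.70 in 168FARN and 5.64, 5.30 and 5.22 in 67NR. All 3 arrays of 168FARN lay above the other 9, which ran from 5.22 to 6.94, beside the background mark of 5.08. Tnn was higher by 4.19 in 168FARN than in 67NR (SE 0.350, limma adjusted p = 2.61e-06), and lower than in 168FARN by -3.72 in 4T1 and -3.19 in 4T07. Tnr (tenascin R) lay at 4.40 to 4.79 on all 12 arrays, below the background mark. Tnxb (tenascin XB) lay at 6.55 to 7.22 and passed the test in none of the 6 comparisons. The fibroblast markers, whose mean was also highest in 168FARN, are given above, and their part in the level of Tnn was not tested.

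**Figure D5:**
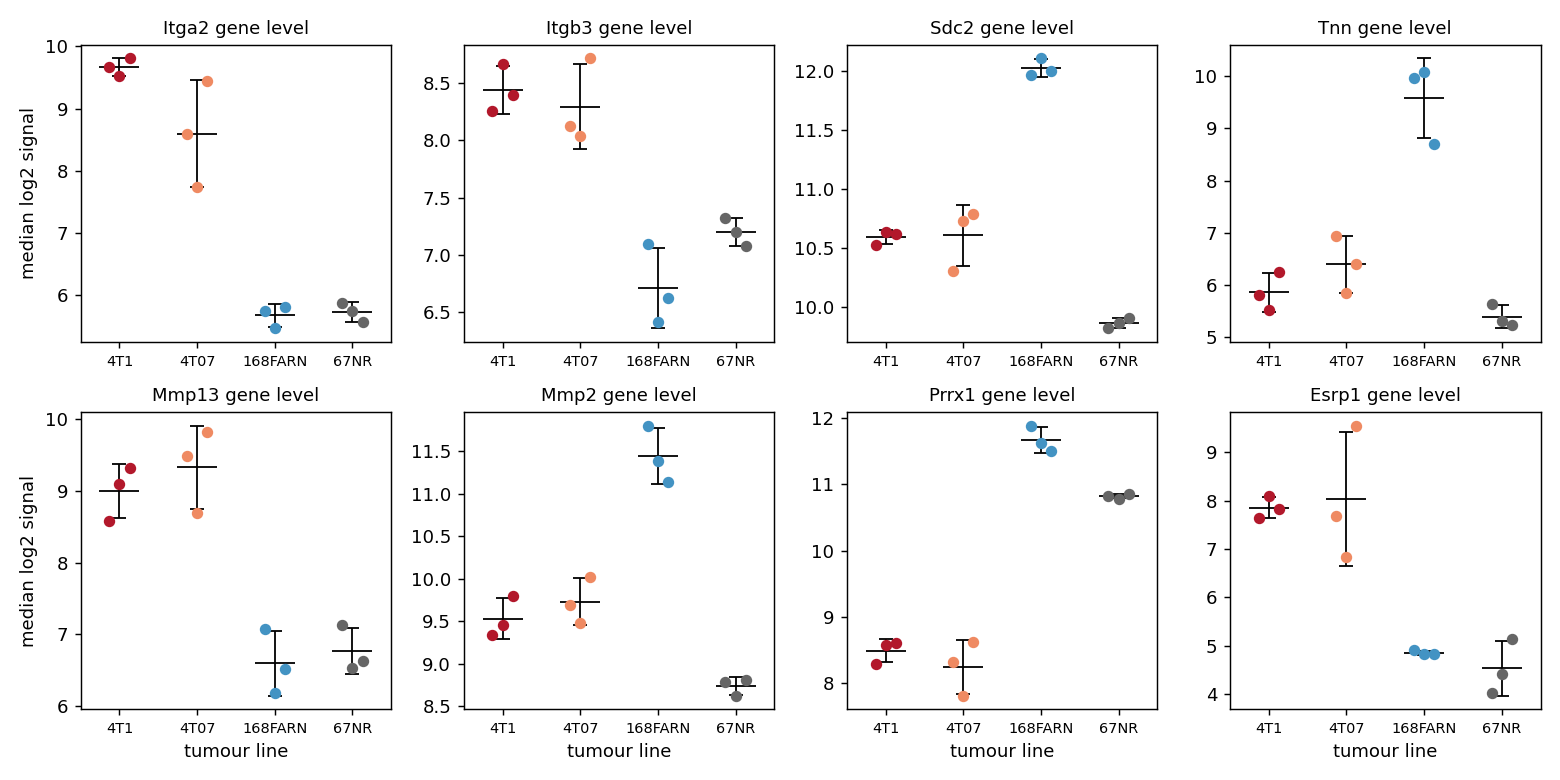
Gene level (median log2 signal) of 8 genes linked to fibronectin or tenascin C by tumour line; points are arrays, the long bar is the line mean and the whiskers are 1 SD (n = 3). Itga2, Itgb3, Mmp13 and Esrp1 are high in 4T1 and 4T07; Sdc2, Tnn and Mmp2 are highest in 168FARN; Prrx1 is low in 4T1 and 4T07.

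Of 10 proteases known to cut fibronectin or tenascin C, limma called 0 lower against 67NR in any line, and 0 were lower at an unadjusted p under 0.05. In 4T1 4 were higher (median change 0.88, all genes -0.04), in 4T07 5 (median 0.73) and in 168FARN 4 (median 0.27, all genes 0.04). Genes called higher made up 9.38%, 11% and 13.5% of all in the same order. Which proteases differed by line. Mmp13, a collagenase, was 8.58, 9.10 and 9.32 in 4T1, 9.48, 8.69 and 9.82 in 4T07, 7.08, 6.18 and 6.52 in 168FARN and 7.13, 6.53 and 6.62 in 67NR, a change against 67NR of 2.24 in 4T1 and 2.57 in 4T07. Mmp3, a stromelysin, was higher by 1.20 in 4T1 and 1.75 in 4T07. Mmp2, a gelatinase, was 11.80, 11.38 and 11.14 in 168FARN against 8.78, 8.62 and 8.81 in 67NR, a change of 2.70, and was higher by 0.99 in 4T07. Its change of 0.79 in 4T1 passed the test, but not without array 3 of 4T1 (0.66, adjusted p = 0.0578). Mmp14, the membrane protease that activates Mmp2, was higher by 1.18 in 4T1, 1.17 in 4T07 and 1.30 in 168FARN. Mmp11 (1.85) and the plasminogen activator Plat (1.74) were higher in 168FARN. Against 168FARN, 11.9% of all genes were called higher and 19.3% lower in 4T1, and 11.4% and 16.8% in 4T07. Compared with 168FARN, 3 proteases were higher and 2 lower in 4T1 (3 lower with array 1 of 168FARN alone), 3 higher and 3 lower in 4T07, and limma called 0 between 4T1 and 4T07, with 1 lower in 4T1 at an unadjusted p under 0.05.

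Inducers and transcription factors linked to Fn1 or Tnc were more often lower than higher against 67NR, but not in 4T1 against 168FARN. All genes also leaned lower against 67NR in 4T1 (9.38% higher, 13% lower) and 4T07 (11% and 12.7%), but not in 168FARN (13.5% and 11.2%). Against 168FARN, 11.9% of all genes were higher and 19.3% lower in 4T1, and 11.4% and 16.8% in 4T07. Of 20 tested, 2 were higher and 5 lower in 4T1 than in 67NR (median change -0.02, all genes -0.04), 3 higher and 7 lower in 4T07 (median -0.14) and 2 higher and 6 lower in 168FARN (median -0.03, all genes 0.04), or 1 higher and 3 lower in 168FARN with array 1 alone. Compared with 168FARN, 7 were higher and 6 lower in 4T1, and 2 higher and 4 lower in 4T07, which became 6 higher and 4 lower in 4T1 and the same counts in 4T07 with array 1 alone. Between 4T1 and 4T07, 1 was higher and 0 lower in 4T1, with 1 lower at an unadjusted p under 0.05 by limma. Of all genes, 2.38% were called there in either direction. Prrx1, a homeobox factor known to activate Tnc, was 8.29, 8.58 and 8.62 in 4T1, 8.32, 7.81 and 8.62 in 4T07, 11.88, 11.62 and 11.51 in 168FARN and 10.83, 10.78 and 10.85 in 67NR. It was thus lower where Tnc was higher, by -2.33 in 4T1 (adjusted p = 1.96e-06) and -2.57 in 4T07 (adjusted p = 8.93e-07) against 67NR, and higher by 0.85 in 168FARN. Snai2 and Zeb1, factors of epithelial-mesenchymal transition, were lower by -2.29 and -1.50 in 4T1 and by -1.84 and -1.64 in 4T07. The ligand Tgfb3 was higher by 1.14 in 4T1 and 1.05 in 4T07, and the receptor Tgfbr1 by 1.06 in 4T1. The change of Tgfbr1 in 4T07, 0.58, did not pass without array 2 of 67NR (0.50, adjusted p = 0.0673). Smad3, which carries TGF-beta signals to the nucleus, was lower by -0.98 in 168FARN. Epithelial markers were also high in the lines with high Tnc: 7 of 7 tested were higher in 4T1 and in 4T07 than in 67NR and 2 of 7 in 168FARN (1 of 7 with array 1 alone), with medians of 2.61, 2.43 and 1.07. Their part in the level of Tnc was not tested.

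Whether each of the 16 splicing regulators listed acts on type III exons of Fn1 or Tnc was not analysed here. Of these regulators, 14 could be tested. In 168FARN limma called 0 of them against 67NR, with 1 lower at an unadjusted p under 0.05 (median change -0.02, all genes 0.04). In 4T1 2 were higher and 2 lower against 67NR, and in 4T07 2 were higher and 1 lower. Of all genes, 9.38% were called higher and 13% lower in 4T1, 11% and 12.7% in 4T07, and 13.5% and 11.2% in 168FARN. Esrp1, an epithelial splicing regulator, was 7.65, 8.09 and 7.82 in 4T1, 7.68, 6.84 and 9.55 in 4T07, 4.91, 4.83 and 4.82 in 168FARN and 4.03, 4.43 and 5.15 in 67NR. The lines with low Tnc had Esrp1 at 5.15 or below, near the background mark, and the other 2 lines did not overlap with them. The change against 67NR was 3.32 in 4T1 and 3.49 in 4T07, and its relative Esrp2 was higher by 1.57 and 0.98. Mbnl1 and Rbfox2 were the genes called lower in 4T1, by -0.40 and -0.43, and Mbnl1 the one called lower in 4T07, by -0.43. The call on Mbnl1 was lost under 12 of 18 alternative fits in 4T1 and 6 of 18 in 4T07, and that on Rbfox2 under 8 of 18. Whether any regulator bears on 5201971, which lay closest to its gene level in 168FARN, was not tested. Against 168FARN, 11.9% of all genes were called higher and 19.3% lower in 4T1, and 11.4% and 16.8% in 4T07. There 2 regulators were higher and 2 lower in 4T1, and 2 were higher in 4T07. The higher ones were Esrp1, by 3.00 in 4T1 and 3.17 in 4T07, and Esrp2, by 1.46 and 0.87. The lower ones in 4T1 were Srsf3 (-0.59, limma adjusted p = 0.0181) and Rbfox2 (-0.58, adjusted p = 0.00643). With array 1 of 168FARN alone, Srsf3 (-0.28, adjusted p = 0.435), Rbfox2 (-0.60, adjusted p = 0.0566) and Esrp2 in 4T07 (1.04, adjusted p = 0.0796) did not pass.

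Other cell type markers shifted as well, and counts are against 67NR. There 9.38% of all genes were called higher and 13% lower in 4T1, 11% and 12.7% in 4T07, and 13.5% and 11.2% in 168FARN. Macrophage markers averaged 9.97 ± 0.05 in 4T1, 9.57 ± 0.21 in 4T07, 9.54 ± 0.06 in 168FARN and 10.12 ± 0.05 in 67NR, with 1 higher and 3 lower of 10 in 4T1, and 4 lower in 4T07 and in 168FARN each. Endothelial markers averaged 8.16 ± 0.22, 8.14 ± 0.29, 7.80 ± 0.17 and 8.49 ± 0.14 in the same order (SD, n = 3 each), with 1 of 8 higher and 1 lower in 4T1, 1 higher and 3 lower in 4T07, and 5 lower in 168FARN, of which 0 were called with array 1 alone. The 8 muscle markers averaged 7.29 ± 1.72 in 168FARN and 5.68 ± 0.26 in 67NR (SD, n = 3 each). Their median change of 1.65 was above the 1.01 of the fibroblast markers, but with the wide spread between the 168FARN arrays limma called 1 of 8 higher (6 at an unadjusted p under 0.05), and 0 with array 1 alone. Fibroblast markers were higher for 5 and lower for 2 of 14 in 4T1, and higher for 8 and lower for 1 in 4T07. The collagen I chain Col1a2 was higher by 1.78 in 4T1 and 1.75 in 4T07, and S100a4 was lower by -2.42 and -3.40.

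The genes whose level followed Tnc most closely over the 12 arrays, among 3243 with line means that ranged over at least 1, were Tnnt2 (Pearson correlation 0.983), Ppp1r9a (0.973), Spon1 (0.972), Itga3 (0.972) and Trim44 (0.967). Itga3, an integrin alpha chain that pairs with beta 1 in a laminin receptor, had mean levels of 11.98 in 4T1, 11.50 in 4T07, 9.20 in 168FARN and 9.92 in 67NR, and Tnnt2, a troponin chain of heart muscle, had 9.88, 9.80, 5.45 and 6.37 in the same order. For Fn1 the closest of 3244 genes were Rnf128 (0.940), a2ld1 (0.924), Spata7 (0.923), P3h1 (0.916) and Sox5 (0.914). P3h1, which hydroxylates prolines of collagen, had means of 8.57 in 4T1, 8.73 in 4T07, 8.84 in 168FARN and 7.54 in 67NR. These correlations rest on 4 lines of 3 arrays each and describe the order of the lines more than the spread within them.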

How the data were processed

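The deposited values were log2 signals, 1 for each of 228090 probesets on each of 12 arrays, and were used as deposited. That the scale is log2 was inferred from the values, and background correction, normalization and genome build are not given in the sources used here. Per the labels' protocols, Trizol-extracted total RNA was fragmented and biotin-labelled. Through the platform annotation, 207232 probesets had 1 gene symbol, 3882 several and 16976 none. Symbols were updated with RefSeq names: of 16207, 14055 were current, 2111 were updated and 41 were kept, leaving 16185 genes.

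A gene's level was the median of its probesets, for 15025 genes with at least 3. All 12 arrays entered 1 limma fit (version 3.58.1, lmFit and eBayes; R 4.3.3; package data.table in version 1.17.8) with 1 mean per line, with Benjamini-Hochberg adjustment over all genes in each contrast and a threshold of 0.05. diffSplice used 110320 probesets of 7349 genes, after removal of probesets below the 25th percentile, genes below the 50th and genes left with fewer than 4. The splicing index was limma's test of a probeset minus the median of its gene's tested probesets. Both were run on simulated data with independent noise for each probeset. Such data do not mimic probesets of a gene that vary together over arrays. Replicate numbers were not treated as a pairing in the main fit. Of same-number pairs, 3 of 18 correlated above 0.1 (median 0.01, range -0.09 to 0.19). Of different-number pairs, 2 of 36 did (median -0.01, range -0.16 to 0.22). So few pairs cannot show whether the samples were paired. For arrays, their number limits the precision.

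The members and gene lists were chosen with earlier results of these data known. Named were Fn1, Tnc and their probesets; up to 4 genes per list with the largest change past the test, and list members set beside Fn1 or Tnc by role; and the 5 genes most correlated with each. Lists, described by counts without a set test, covered receptors, matrix assembly partners, other tenascins, proteases, inducers and transcription factors, splicing regulators, and fibroblast, macrophage, endothelial, skeletal muscle and epithelial markers.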

Additional observations from a re-analysis of the deposited data

How the results depend on the processing

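Of the 24 results for Fn1 and Tnc (gene levels and counts of called probesets in 6 comparisons), most kept their direction and side of the threshold under the alternatives chosen with the design: 385 of 408 values did. Fn1 against 67NR passed with the mean of the probesets in 168FARN (0.42, limma adjusted p = 0.0133) and 4T07 (0.38, 0.0244); under quantile normalization in 4T1 (0.324), 4T07 (0.417) and 168FARN (0.392); with dim probesets left out in 4T07 (0.352, 0.0484); and among brighter genes only in 4T07 (0.352, 0.0356) and 168FARN (0.336, 0.039), where fewer genes were tested. Leaving out 1 array, Fn1 in 4T07 ranged from 0.308 to 0.402 and passed without 4T07 array 1 (0.048); Tnc in 168FARN against 67NR ranged from -1.144 to -0.674 (adjusted p 0.0129 to 0.182), failing without any 1 of the 67NR arrays, 168FARN array 1 or 2, 4T07 array 1, or 4T1 array 1 or 2. Counts of called Fn1 probesets ranged from 1 to 2 in 168FARN against 67NR and from 1 to 2 in 4T1 against 168FARN. The splicing index called 1 Fn1 probeset in 168FARN against 67NR and 1 Tnc probeset in 4T07 against 168FARN. With 168FARN array 1 as the only array of its line, an alternative chosen after seeing the data that assumes the lone array varies like the other groups, Tnc against 67NR was -0.828 and 2 Fn1 probesets were called in 4T1 against 168FARN. With the replicate number as a block, Fn1 in 168FARN against 67NR was 0.336 (adjusted p = 0.083) and Tnc -0.936 (0.0157), and no call on Fn1 or Tnc changed. Of 180 calls on the listed genes named here or examined, 154 held in every alternative chosen with the design, and 0 reversed. Where fewer samples or genes entered the test the construction bears on the change; otherwise the cause was not tested.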
